A study of Mus musculus with 6 samples.

Results

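The genes described here encode the machinery that copies DNA in S phase. They are 45 genes picked by symbol: the origin recognition complex, the factors that load and start the replicative helicase, the polymerases and primase, the sliding clamp and its loader, the single-strand binding protein RPA, the enzymes that supply deoxynucleotides, and enzymes that mature the new strand or remove uracil from it. Probes of the array carried the symbols of 41 of the 45 among 16593 genes named on the array. Levels of Gins1, Gins2, Rfc3 and Rnaseh2a were not analysed here. The signal passed the detection filter for 36 of the 41, and these were tested among 9973 genes.

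The RNA came from whole lymph nodes of mice. The knockout group carried a combined Rag2 and pfp knockout (pfp is the perforin gene, current symbol Prf1) and the other group was wild type, with 3 arrays in each. Without RAG2 the genes for antigen receptors are not assembled and B and T cells stop early in development. Perforin makes the pores through which killer cells act on their targets. The sources used here give no strain, age or sex of the mice, no lymph node site, no word on pooling and no description of the mutant alleles. They also leave unsaid whether each array of a group stands for its own animal, so every p-value reflects array-to-array spread that may be technical.

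Replication starts from origins that are licensed in G1. The origin recognition complex (ORC) binds the origin, CDC6 and CDT1 join it and load the ring of MCM proteins, and in S phase CDC45 and the GINS complex turn that ring into the active helicase. Polymerase alpha with its primase starts each strand, polymerases epsilon and delta extend them on the PCNA clamp, and cycling cells raise the transcripts of many of these proteins through E2F transcription factors. In a lymph node the cells that divide most are lymphocytes answering antigen, above all those of germinal centres.

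Replication genes were lower in the knockout nodes. Of the 36 genes tested, 24 fell and 0 rose (limma, adjusted p under 0.05 over all 14378 probes tested), where 17.3% of all tested genes fell and 10.2% rose. Calls in either direction made up 27.5% of all tested genes. Irrespective of the test, 35 of the 36 had a negative change and 1, Gins3, a positive one. Their median log2 change was -1.15, against 0.03 over all tested genes. The median was -1.11 with Orc4 and Pcna, which were detected on no knockout array, set at their bound. Those 2 genes passed the detection filter only through the wild-type arrays. Of the 34 genes detected on all 6 arrays, 22 fell. All 3 knockout arrays lay below all 3 wild-type arrays for 31 of the 36 genes, which was so for 26.0% of all tested genes. The RNA came from whole tissue, in which fewer cells of a type and less RNA per cell cannot be told apart. Exocrine gland markers were also high on all knockout arrays and on wild-type replicate 2 (list means 13.10 to 14.67 and 12.97). They were at 6.03 and 6.08 on wild-type replicates 1 and 3. With their mean level as a covariate the median log2 change of the replication genes was -0.54, and 7 were called lower. That covariate also differs between the groups, so the part of gland RNA itself was not tested.

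**Figure D1:**
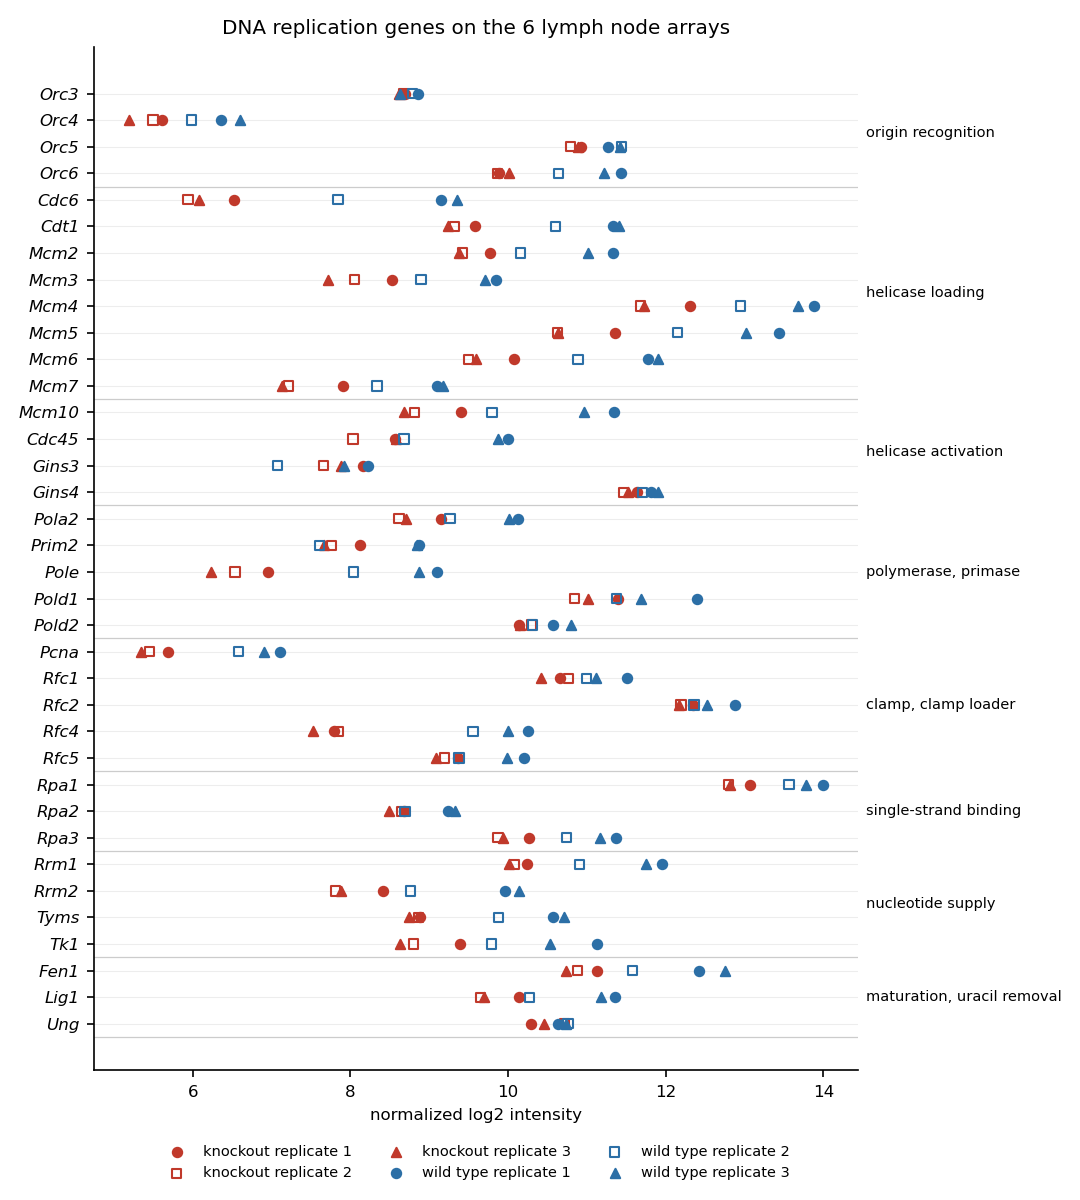
Normalized log2 intensity of the 36 tested DNA replication genes on each array, grouped by role, with 1 probe per gene. Colour gives the genotype and shape the replicate. The helicase loading genes separate the groups on every array, and the open blue squares of wild-type replicate 2 lie between the other wild-type arrays and the knockout for most genes.

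How many genes passed the test depended on single arrays. Leaving out knockout replicate 1 left 17 genes called lower, and leaving out knockout replicate 2 or 3 left 7 in each case. On the wild-type side 12 were called when replicate 1 was dropped, 29 when replicate 2 was dropped and 7 when replicate 3 was dropped. Calls over all tested probes moved as well, from 4119 with every array to 2393, 1991 and 1805 without knockout replicates 1, 2 and 3. The median log2 change of the replication genes ranged from -1.47 to -0.97 with 1 array left out. Cdc6, Cdt1, Mcm6, Pole, Pcna, Rfc4 and Tyms, 7 genes in all, were called lower whichever array was left out. With the mean level of exocrine gland markers as a covariate 7 genes were called lower, and they were these 7. They are the 7 genes with the lowest adjusted p in the main fit, and all fits use the same arrays. The match is thus not separate support, and the covariate removes part of the genotype difference by construction.

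All helicase loading factors fell, as did all genes of nucleotide supply described further on. All 8 of CDC6, CDT1 and the 6 subunits of the MCM ring passed the test, with log2 changes from -2.60 to -1.31 and a median of -1.67. Cdc6, an ATPase that brings MCM rings to the origin, read 6.52, 5.94 and 6.08 on knockout replicates 1, 2 and 3 and 9.14, 7.84 and 9.35 on wild-type replicates 1, 2 and 3 on the normalized log2 scale. It was 6.07-fold lower (log2 change -2.60, SE 0.42, limma adjusted p = 0.0085), the groups did not overlap, and wild-type replicate 2 was the lowest of its group. Its knockout levels were close to background (detection p 0.0050, 0.048 and 0.024), so the size depends on the scaling. The log2 change was -2.16 with an offset of 50 and -1.67 with the authors' deposited log2 values. In the non-normalized table its signal was 164, 130.1 and 144 in the knockout and 742, 376 and 862 in wild type. The median signal of the arrays was 134 to 144 in the knockout and 191 to 207 in wild type, so part of a gap in non-normalized signal is general.

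Mcm5, a subunit of the ring, read 11.35, 10.63 and 10.63 in the knockout and 13.44, 12.15 and 13.02 in wild type. Its mean was 10.87 in the knockout and 12.87 in wild type, a fall that passed the test (SE of the difference 0.38, limma adjusted p = 0.013), and knockout replicate 1 was the highest of its group. Mcm2, a subunit with the highest adjusted p of this role, read 9.77, 9.42 and 9.38 in the knockout and 11.33, 10.16 and 11.02 in wild type. It fell by 1.31 on the log2 scale (SE 0.32, limma adjusted p = 0.028), and the gap between the lowest wild-type and the highest knockout array was narrow. Cdt1, the partner of CDC6 in loading, fell by 1.73 (SE 0.25). The log2 changes of the ring subunits Mcm4, Mcm7 and Mcm3 were -1.60, -1.45 and -1.39.

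Mcm6 was measured by 3 tested probes, all of them lower in the knockout. The brightest read 10.08, 9.50 and 9.59 in the knockout and 11.78, 10.89 and 11.90 in wild type, a log2 change of -1.80 (SE 0.32, limma adjusted p = 0.011). The second probe fell by 1.77 (SE 0.35). The last (ILMN_1217331) read 8.65, 8.29 and 7.80 in the knockout and 11.72, 10.90 and 11.92 in wild type, a log2 change of -3.27 (SE 0.34). It was the largest fall of any tested probe of the 36 genes. The probes of this gene thus differed in the size of the fall and not in its direction, and why they differed was not tested.

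The promoters of the loading factors are shown because all 8 genes fell and 6 of the 7 with a promoter window hold an E2F element, the highest share of any role. The role was chosen for display with these matches known. In nucleotide supply, where every gene also fell, 0 of 4 genes hold the element, and in the single-strand binding role 0 of 3 do. The windows are RefSeq's for GRCm38.p6, 250 bases before to 50 after a transcription start, and were matched for 38 of the 45 genes. The element was searched as TTTCCCGC, TTTGGCGC, TTTGCCGC or TTTCGCGC on both strands, where 2 matches may overlap. For 4 genes the 250 bases before the start are given 5′ to 3′ with the matches in capitals, and for 2 genes whose matches lie after the start 30 bases around the first of them.
Cdc6 promoter, chr11:98907901-98908150, plus strand: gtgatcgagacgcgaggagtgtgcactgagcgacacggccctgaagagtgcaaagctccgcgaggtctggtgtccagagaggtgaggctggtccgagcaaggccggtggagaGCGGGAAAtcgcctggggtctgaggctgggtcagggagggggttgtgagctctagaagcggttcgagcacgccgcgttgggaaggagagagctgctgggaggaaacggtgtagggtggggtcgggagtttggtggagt
Mcm5 promoter, chr8:75109259-75109508, plus strand: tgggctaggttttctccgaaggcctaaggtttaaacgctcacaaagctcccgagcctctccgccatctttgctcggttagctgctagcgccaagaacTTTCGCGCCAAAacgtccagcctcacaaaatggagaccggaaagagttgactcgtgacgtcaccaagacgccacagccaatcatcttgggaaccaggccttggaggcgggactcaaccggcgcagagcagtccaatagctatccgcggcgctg
Mcm6 promoter, chr1:128359706-128359955, minus strand: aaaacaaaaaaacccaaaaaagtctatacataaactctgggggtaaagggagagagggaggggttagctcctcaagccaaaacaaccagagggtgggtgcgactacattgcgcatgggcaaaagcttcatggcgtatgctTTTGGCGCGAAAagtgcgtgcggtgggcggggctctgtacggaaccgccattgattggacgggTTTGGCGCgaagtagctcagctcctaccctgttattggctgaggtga
Mcm7 promoter, chr5:138171884-138172133, minus strand: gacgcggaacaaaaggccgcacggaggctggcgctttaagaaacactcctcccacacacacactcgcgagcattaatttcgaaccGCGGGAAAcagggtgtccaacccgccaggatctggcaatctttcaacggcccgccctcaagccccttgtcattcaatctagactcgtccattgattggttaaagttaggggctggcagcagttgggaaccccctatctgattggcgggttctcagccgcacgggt
Cdt1 element after the start, chr8:122568035-122568064, plus strand: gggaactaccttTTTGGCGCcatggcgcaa
Mcm3 element after the start, chr1:20820275-20820304, minus strand: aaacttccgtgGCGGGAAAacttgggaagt

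An exact E2F element occurred in the windows of 14 of 38 replication genes (36.8%), of 352 of 8086 tested genes with a window (4.35%) and in 2.26% of all 32851 windows of the table. By role it occurred in 6 of 7 helicase loading, 2 of 6 origin recognition, 1 of 3 helicase activation, 3 of 6 polymerase and primase, 1 of 5 clamp and 1 of 4 maturation genes. In Mcm5 and in Mcm6 a pair of matches on opposite strands overlaps, and Mcm6 holds a further match nearer the start. Mcm3 has 2 matches, both after the start, and Mcm7 has a match before and another after the start of the same window. Among the genes that fell, 7 of 22 with a window held the element, and among the tested genes that were not called 3 of 9 did. A match of letters is a description and not a binding site.

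Orc3 is given as the counterpart, a subunit of the origin recognition complex whose promoter also holds the element and whose level was not called as changed.
Orc3 promoter, chr4:34614943-34615192, minus strand: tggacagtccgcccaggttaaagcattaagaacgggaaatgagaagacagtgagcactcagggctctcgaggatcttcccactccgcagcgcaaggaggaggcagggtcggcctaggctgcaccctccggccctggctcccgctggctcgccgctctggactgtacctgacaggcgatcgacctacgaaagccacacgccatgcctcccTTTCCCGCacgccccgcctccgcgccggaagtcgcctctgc

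**Figure D2:**
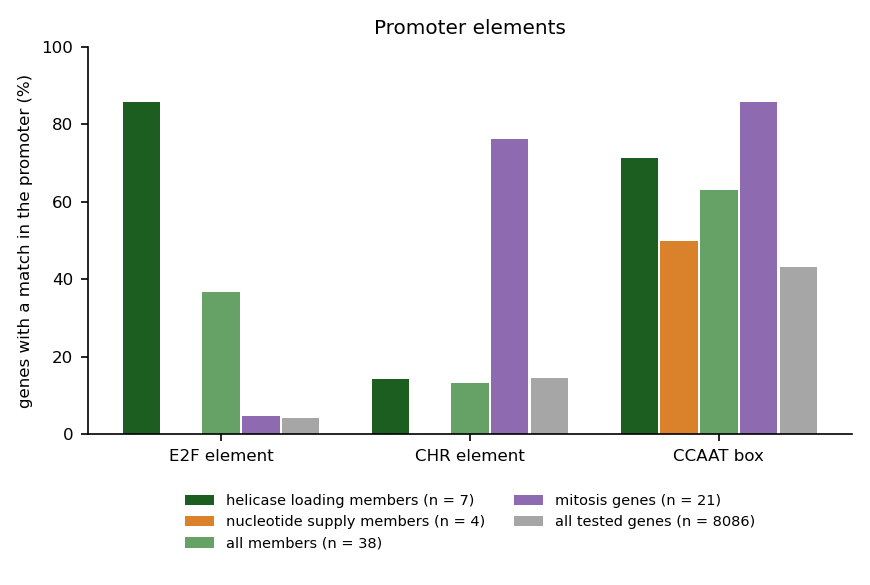
Share of genes, in percent, whose promoter window holds an exact match to an E2F element, a CHR element or a CCAAT box, for the helicase loading genes, the nucleotide supply genes, all replication genes, the mitosis genes and all tested genes. The E2F element was found in 85.7% of the loading genes with a window, in 0 of 4 nucleotide supply genes and in 4.76% of the mitosis genes, and the CHR element in 13.2% of the replication genes and 76.2% of the mitosis genes.

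A pair of other promoter elements was searched in the same windows. The CHR element (TTTGAA on either strand), known from promoters of genes that peak in late cell cycle, occurred in 5 of 38 replication genes (13.2%) and in 14.6% of tested genes with a window. In a list of 24 mitosis genes it occurred in 16 of the 21 with a window (76.2%), and the E2F element in 1 of them. The CCAAT box, a general promoter element searched as CCAAT on either strand, occurred in 24 of the 38 replication genes (63.2%) and in 43.1% of tested genes.

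Of the 6 subunits of the origin recognition complex, 4 were tested and 3 fell, with a median log2 change of -0.70. Orc6, a subunit needed to recruit the MCM ring, read 9.88, 9.87 and 10.01 in the knockout and 11.43, 10.64 and 11.22 in wild type. It fell by 1.18 (SE 0.23, limma adjusted p = 0.015) with no overlap. Orc4, an ATPase subunit, was detected on 0 of 3 knockout arrays. Its non-normalized signals were 123, 115 and 109 in the knockout and 224, 187 and 229.6 on the generally brighter wild-type arrays. It was at least 1.42-fold lower (limma adjusted p = 0.028), a bound that takes the knockout level as the higher of the probe's own and the lowest detected level of each array. With the authors' deposited log2 values the change was -0.37 and the adjusted p 0.065, so the call was lost.

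Orc5, another ATPase subunit, fell by 0.51 (SE 0.14, limma adjusted p = 0.039) with its brighter probe. Its other probe changed by -0.42 and was not called (limma adjusted p = 0.063). With 1 array left out, Orc5 was called in 0 of 6 fits (limma adjusted p up to 0.12) and Orc4 in 1 of 6. Orc3 read 8.69, 8.67 and 8.61 in the knockout and 8.85, 8.79 and 8.62 in wild type, a change of -0.10 (SE 0.14, limma adjusted p = 0.62), and its groups overlapped. Orc1, the subunit that is cell-cycle regulated in many cells, was not above background on any array, where its lowest detection p was 0.584. Of 2 probes of Orc2, the core subunit that binds ORC3, 1 was detected on wild-type replicates 1 and 3 alone, and neither was tested.

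Among the factors that start the helicase, 1 of 4 tested genes fell, where 17.3% of all tested genes did. Mcm10, which helps the assembled helicase to open DNA, read 9.40, 8.81 and 8.68 in the knockout and 11.34, 9.80 and 10.96 in wild type with its brighter probe. It fell by 1.74 (SE 0.43, limma adjusted p = 0.029) without overlap, and its dimmer probe changed by -1.65 (SE 0.53, limma adjusted p = 0.062), with overlap. Cdc45, a component of the active helicase, changed by -1.12 (SE 0.38, limma adjusted p = 0.072) and passed the test when wild-type replicate 2 was dropped. Of the GINS subunits, Gins4 changed by -0.26 (SE 0.14) and was not called. Gins3 read 8.15, 7.66 and 7.87 in the knockout and 8.22, 7.08 and 7.92 in wild type, a change of 0.16 (SE 0.32, limma adjusted p = 0.73) that became -0.18 without wild-type replicate 2. Wild-type replicate 2 was here the lowest of all 6 arrays.

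Of the polymerase and primase genes, 5 of 8 were tested and 2 fell, where 17.3% of all tested genes did. Pole, the catalytic subunit of the leading strand polymerase epsilon, read 6.95, 6.53 and 6.23 in the knockout and 9.10, 8.04 and 8.87 in wild type. It was 4.28-fold lower (log2 change -2.10, SE 0.33, limma adjusted p = 0.0080), with a wide gap between the groups. Its knockout levels were close to background (detection p 0.0013, 0.014 and 0.010). The log2 change was -1.77 with an offset of 50 and -1.38 with the authors' deposited log2 values. Pola2, the regulatory subunit of polymerase alpha, read 9.15, 8.62 and 8.71 in the knockout and 10.13, 9.26 and 10.01 in wild type, a log2 change of -0.98 (SE 0.28, limma adjusted p = 0.046), and the highest knockout array came close to wild-type replicate 2. Pold1 and Pold2, the catalytic and an accessory subunit of polymerase delta, changed by -0.74 and -0.36 and were not called (limma adjusted p of 0.11 and 0.16).

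Prim2, the large primase subunit, had 2 tested probes with differing outcomes. The brighter read 8.12, 7.76 and 7.66 in the knockout and 8.87, 7.61 and 8.85 in wild type, a change of -0.59 (SE 0.37, limma adjusted p = 0.25), and wild-type replicate 2 was the lowest of the 6 arrays. The dimmer probe was detected on all wild-type arrays but on 1 of 3 knockout arrays, replicate 3. It was called lower (log2 change -1.63, SE 0.26, limma adjusted p = 0.0081), with a size that rests on knockout levels mostly not above background. Pola1, the catalytic subunit of polymerase alpha, Prim1, the small primase subunit, and Pole2, a subunit of polymerase epsilon, were not above background on any array.

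Of the clamp and its loader, 5 of 6 genes were tested and 2 fell, where 17.3% of all tested genes did. Rfc4, a small subunit of the loader, read 7.79, 7.85 and 7.53 in the knockout and 10.25, 9.56 and 9.99 in wild type. It was 4.64-fold lower (log2 change -2.21, SE 0.22, limma adjusted p = 0.0027), the lowest adjusted p of the 36 genes. Its second probe, detected on no knockout array, was at least 1.73-fold lower (limma adjusted p = 0.021). With the authors' deposited log2 values that probe changed by -0.45 on the log2 scale. Pcna, the clamp, had non-normalized signals of 126, 114 and 115 in the knockout and 287, 225 and 255 on the generally brighter wild-type arrays. It was detected on all 3 wild-type and 0 of 3 knockout arrays and was at least 2.09-fold lower (limma adjusted p = 0.0060). The size depended on the scaling, as the log2 change of Pcna was -0.93 with an offset of 50 and -0.60 with the authors' deposited log2 values. Wild-type replicate 2 was the lowest of its group for both genes.

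The other loader subunits were not called. Rfc1, the large subunit, changed by -0.58, Rfc5 by -0.64 and Rfc2 by -0.35, with limma adjusted p of 0.069, 0.094 and 0.18. Rfc2 read 12.34, 12.19 and 12.16 in the knockout and 12.88, 12.36 and 12.52 in wild type, so that the groups were next to each other without overlap. Without wild-type replicate 2 the number of clamp and loader genes that fell was 4, as Rfc1 and Rfc5 were then called.

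The single-strand binding protein RPA is a trimer that coats unwound DNA, and 2 of its 3 genes fell. Rpa3, the smallest subunit, read 10.26, 9.87 and 9.93 in the knockout and 11.37, 10.74 and 11.17 in wild type, a log2 change of -1.07 (SE 0.22, limma adjusted p = 0.016). Rpa1, the large subunit, read 13.06, 12.79 and 12.82 in the knockout and 14.00, 13.56 and 13.78 in wild type, a log2 change of -0.89 (SE 0.18, limma adjusted p = 0.015). Neither gene had overlapping groups. Rpa2, the middle subunit, read 8.68, 8.66 and 8.49 in the knockout and 9.23, 8.69 and 9.33 in wild type with its brighter probe, a change of -0.48 that was not called (limma adjusted p = 0.13). The dimmer Rpa2 probe, detected on no knockout array, was at least 2.49-fold lower (limma adjusted p = 0.0077). With the authors' deposited log2 values that probe changed by -0.82 on the log2 scale.

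All 4 genes of nucleotide supply fell, with log2 changes from -1.58 to -1.42. Rrm2, the subunit of ribonucleotide reductase that holds its radical, read 8.41, 7.81 and 7.88 in the knockout and 9.96, 8.76 and 10.13 in wild type. It fell by 1.58 (SE 0.40, limma adjusted p = 0.030) and also fell with a dimmer probe (SE 0.41, limma adjusted p = 0.017), and wild-type replicate 2 came close to knockout replicate 1. Tyms, thymidylate synthase, read 8.88, 8.86 and 8.74 in the knockout and 10.57, 9.88 and 10.71 in wild type. It fell by 1.55 (SE 0.24, limma adjusted p = 0.0079), and its second tested probe by 1.08 (SE 0.27). The knockout arrays of Tyms lay close together and far from wild type.

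Rrm1, the large subunit of the same reductase, fell by 1.42 (SE 0.29, limma adjusted p = 0.016). Tk1, the cytosolic thymidine kinase of the salvage pathway, fell by 1.54 (SE 0.38, limma adjusted p = 0.029) with its brightest probe. A dimmer Tk1 probe changed by -0.71 and was not called (limma adjusted p = 0.16).

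Of the strand maturation and uracil removal genes, 3 of 4 were tested and 2 fell. Fen1, the flap nuclease of Okazaki fragments, read 11.13, 10.88 and 10.73 in the knockout and 12.43, 11.58 and 12.75 in wild type, a log2 change of -1.34 (SE 0.32, limma adjusted p = 0.026). Lig1, the ligase that seals these fragments, read 10.14, 9.65 and 9.70 in the knockout and 11.35, 10.27 and 11.17 in wild type, a 2.15-fold fall (SE on the log2 scale 0.32, limma adjusted p = 0.046). The highest knockout array of Lig1 was next to wild-type replicate 2. Of the dimmer Lig1 probes, 1 was detected on no knockout array and was at least 2.47-fold lower (limma adjusted p = 0.0056). With the authors' deposited log2 values it changed by -0.87 on the log2 scale. The other dimmer probe changed by -0.56 with overlap (limma adjusted p = 0.34).

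Ung, the uracil glycosylase that acts at replication forks and, in B cells, on the deaminated DNA of antibody genes, was among the 12 tested genes that were not called. Its brightest probe read 10.29, 10.71 and 10.46 in the knockout and 10.63, 10.76 and 10.73 in wild type, a change of -0.22 (SE 0.17, limma adjusted p = 0.34) with overlap. A second probe changed by -0.12 and was not called (limma adjusted p = 0.62). Another (ILMN_2457054), close to background, rose by 0.92 on the log2 scale (SE 0.19, limma adjusted p = 0.016), and with the authors' deposited log2 values by 0.39 (adjusted p = 0.043). Its non-normalized signals were 157, 158 and 164 in the knockout and 171, 178 and 174 in wild type; before normalization the probe was thus lower in the knockout. The median signal of the arrays was 134 to 144 in the knockout and 191 to 207 in wild type.

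**Figure D3:**
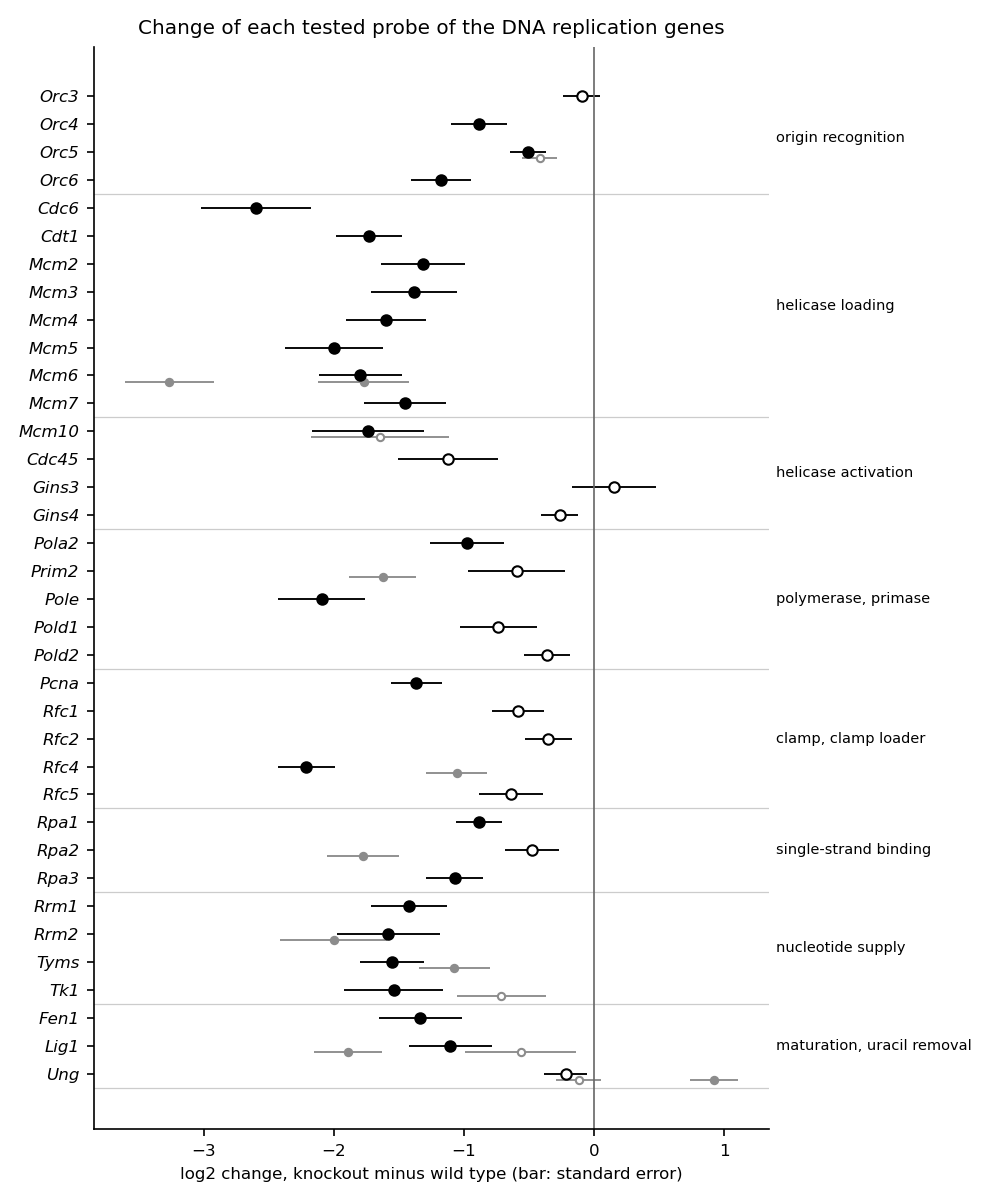
Log2 change, knockout minus wild type, with its standard error for each tested probe of the DNA replication genes. Black marks the brightest probe of a gene, grey its other probes, and a filled point an adjusted p under 0.05. Of 50 probes 32 lie below zero with a call, and 1, of Ung, lies above it with a call.

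Probes of the same gene did not always share a call. Over all 36 genes, 50 probes were tested, of which 32 were lower, 1 was higher and 17 were not called, where 18.5% of all tested probes were lower and 10.1% higher. Of 11 genes with over 1 tested probe, 4 had the same call for every probe (Mcm6, Rfc4, Rrm2 and Tyms) and 7 did not.

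Wild-type replicate 2 held an intermediate position. It was the lowest wild-type array for 33 of the 36 genes, which was so for 52.3% of all tested genes. For the 24 genes that fell, its distance from the knockout mean was taken as a share of the distance of wild-type replicates 1 and 3. The median share was 53.9%, from 30.9% for Lig1 to 120.2% for Orc5. By role the median share was 74.2% for the clamp and loader genes, 54.2% for helicase loading, 45.4% for nucleotide supply and 35.3% for Fen1 and Lig1. For the genes that fell in lists of other cells and processes it was 47.6% over 14 mitosis genes, 87.9% over 8 B cell markers and 94.9% over 7 T cell markers, and it was 76.2% over all 1724 genes that fell. These genes were called with that array in the fit, and the shares carry no test. A share also depends on the size of the gap. The median log2 change was -4.97 for the tested B cell markers and -1.15 for the 36 replication genes. B cell markers had list means of 11.88, 11.09 and 11.46 on wild-type replicates 1, 2 and 3, and replication genes 10.69, 9.90 and 10.57. Myeloid, stromal, and natural killer and innate lymphoid marker lists had their lowest mean of all arrays on wild-type replicate 2.

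**Figure D4:**
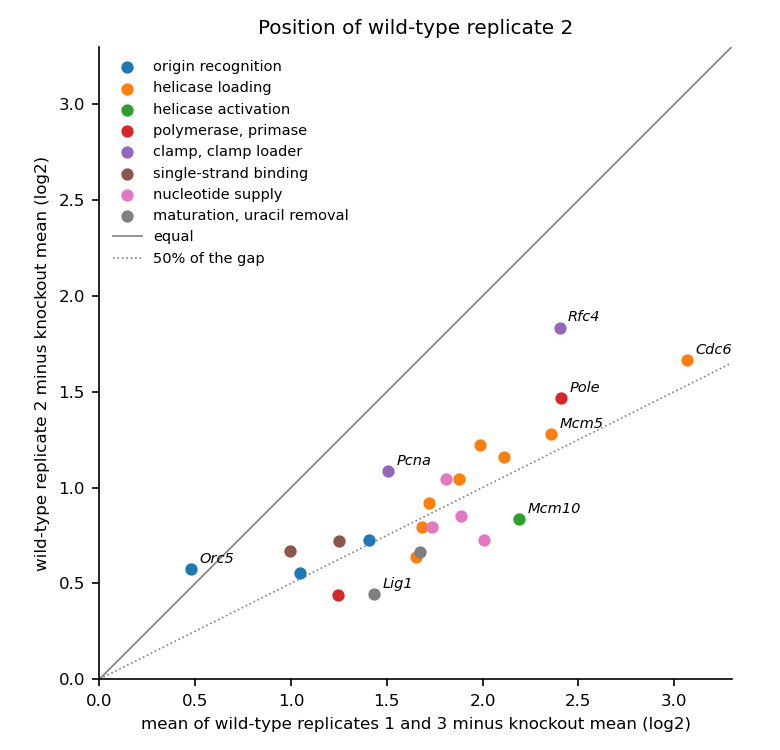
Distance of wild-type replicate 2 from the knockout mean against that of the mean of wild-type replicates 1 and 3, in log2 units, for the 24 genes that fell, coloured by role. The solid line marks equal distances and the dotted line 50%. Most points lie near the dotted line, Rfc4 and Pcna lie above it, and Orc5 lies above the solid line.

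The knockout arrays also differed among themselves. Knockout replicate 1 was the highest of its group for 22 of the 24 genes that fell. The mean level of the 36 genes was 9.47 on knockout replicate 1 and 9.17 and 9.13 on knockout replicates 2 and 3, against 10.69, 9.90 and 10.57 on wild-type replicates 1, 2 and 3. T cell markers were likewise highest on knockout replicate 1, at a list mean of 7.30 against 6.35 and 6.17. This was not particular to them, as B cell, germinal centre, myeloid, natural killer and stromal marker lists were also highest there. Exocrine gland markers were lowest on that array of the knockout, at 13.10 against 14.67 and 14.16.

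Marker lists of the cells a lymph node or its surroundings could hold were read on the same arrays. Beside the counts that follow, 17.3% of all tested genes fell and 10.2% rose. Of 8 B cell markers tested, all 8 fell, with list means of 6.09 to 6.48 in the knockout and 11.09 to 11.88 in wild type, and Fcmr, Cd79a, Ms4a1 and Cr2 were detected on no knockout array. Of 8 T cell markers 7 fell, with list means of 6.17 to 7.30 and 10.48 to 10.90. Of 4 tested germinal centre markers 1, Gcsam, fell (log2 change -2.09), with list means of 9.09 to 9.42 and 9.64 to 10.52. The knockout mean of this list was above that of the B cell markers, but levels of different probes cannot be compared as amounts. How far the list reports germinal centre cells was not tested. Of 12 exocrine gland markers 3 rose, and the list mean was 13.10 to 14.67 in the knockout, 12.97 on wild-type replicate 2 and 6.03 and 6.08 on wild-type replicates 1 and 3. The part of lymphocyte loss and of gland RNA in the levels of the replication genes was not tested. Of 7 myeloid markers 2 rose and 0 fell, of 7 natural killer and innate lymphoid markers 2 rose and 2 fell, and of 11 stromal markers 1 rose and 1 fell. The targeted transcripts gave no check of the labels, as Rag2 was not above background on any array and the 2 probes of Prf1 were not called (limma adjusted p of 0.44 and 0.80).

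**Figure D5:**
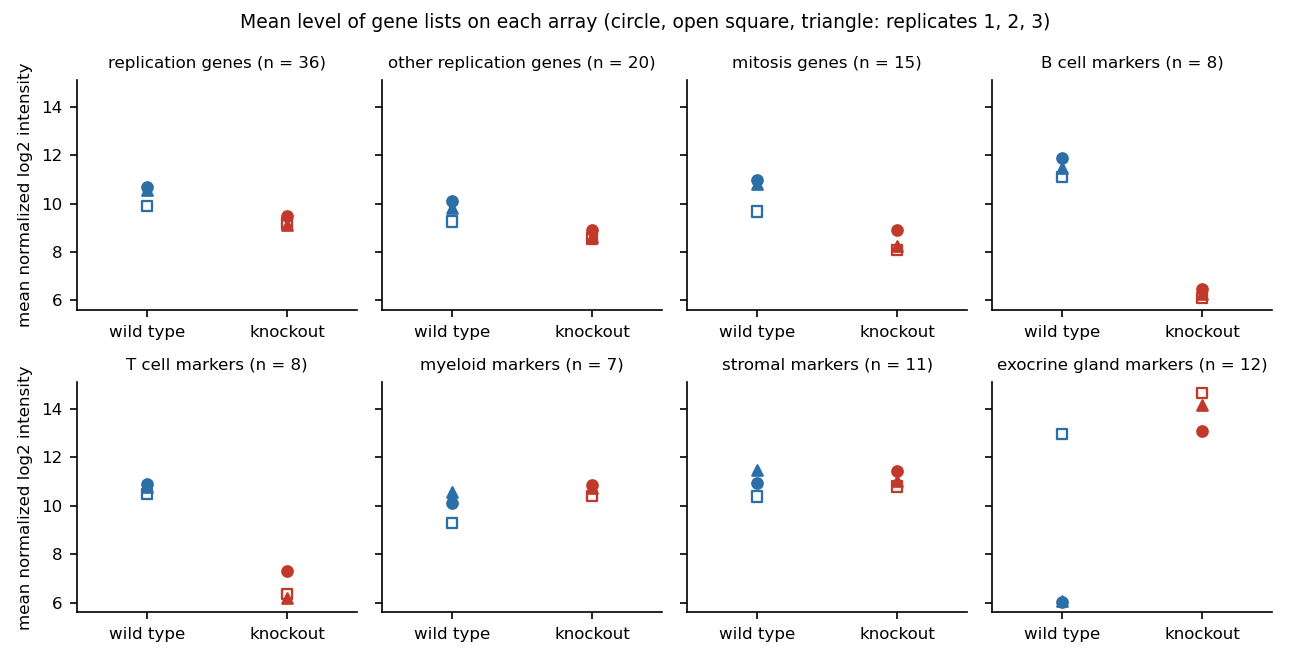
Mean normalized log2 intensity of the tested genes of each list on every array, with wild type in blue and knockout in red. Replication genes range from 9.13 to 9.47 in the knockout and from 9.90 to 10.69 in wild type, and the exocrine gland markers are high on all knockout arrays and on wild-type replicate 2.

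A further list held other genes of DNA replication and, like all lists here, was chosen with earlier results of these data known. Of 20 tested, 10 fell, 1 rose and 9 were not called, with a median log2 change of -0.97. Clspn, the checkpoint adaptor claspin, fell by 2.81 (SE 0.42), Wdhd1, which links polymerase alpha to the helicase, fell by 2.75 (SE 0.37), and Tipin, a partner of TIMELESS at the fork, fell by 1.88 (SE 0.21). Their limma adjusted p lay between 0.0035 and 0.0067, and Wdhd1 was detected on 1 of 3 knockout arrays. Pole3, a small histone-fold subunit of polymerase epsilon, rose by 0.82 (SE 0.16, limma adjusted p = 0.015), reading 10.40, 10.65 and 10.60 in the knockout and 9.54, 9.76 and 9.88 in wild type. Dropping knockout replicate 2 or 3 left 6 of these genes called lower.

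Of 20 regulators of the entry into S phase, 10 fell and 0 rose, with a median of -0.93. E2f2, an activating E2F factor, read 8.45, 7.39 and 7.77 in the knockout and 11.77, 10.51 and 11.47 in wild type, a log2 change of -3.38 (SE 0.41, limma adjusted p = 0.0041). Ccne2, a cyclin that drives CDK2, was detected on no knockout array and was at least 3.02-fold lower, and Mybl2, a transcription factor of cycling cells, fell by 2.14 (SE 0.43). Dropping knockout replicate 2, knockout replicate 3 or wild-type replicate 3 left 5 called lower, and dropping wild-type replicate 1 left 6.

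Where 17.3% of all tested genes fell, 5 of 18 other tested enzymes of nucleotide supply fell and 0 rose, with a median of -0.51. These were Dck, the deoxycytidine kinase, which fell by 1.29 (SE 0.28), Umps, of pyrimidine synthesis, which fell by 1.07 (SE 0.21), and Dut, which removes dUTP and fell by 1.02 (SE 0.22), besides Ctps and Mthfd1. Calls among them numbered 2 and 1 when knockout replicates 1 and 2 were dropped, 0 when knockout replicate 3 or either of wild-type replicates 1 and 3 was dropped, and 10 when wild-type replicate 2 was. Of 15 tested mitosis genes 14 fell, with a median of -1.98, led by Tpx2, a spindle assembly factor, at a log2 change of -3.20 (SE 0.39) and detected on 1 of 3 knockout arrays. For mitosis genes 4 were left when any array other than knockout replicate 1 and wild-type replicate 2 was dropped.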

How the data were processed

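Per the labels' protocols, RNA of the 6 lymph node samples went onto Illumina Mouse Ref-8 v2 arrays. The deposited non-normalized table gives a linear signal intensity and a detection p-value for every probe and array, and the submitters' processing notes name GenomeStudio 2011.1. A deposited series table gives log2 values by the authors, within 5e-07 of a quantile normalization of the log2 intensities without background correction (median 7.38 in each column), and served as an alternative. Between 51.3% and 56.3% of the 25697 probes were detected per array, and the number of arrays limits the precision.

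Here, limma 3.58.1 (R 4.3.3, neqc) corrected the background by normexp with an offset of 16, which shrinks changes of dim probes, then quantile-normalized and took log2. Probes with a detection p under 0.05 on at least 3 of 6 arrays entered lmFit and eBayes, with Benjamini-Hochberg adjustment over 14378 probes. The tested probe with the highest mean stood for its gene. Symbols come from the platform annotation, and a RefSeq table matched 23962 probes and changed 0 symbols. The fit was tested on simulated data.

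Genes, roles and lists were chosen with earlier results of these data known. Every array's value is given for the 2 called genes with the largest change and the gene with the highest adjusted p in each role. Up to 3 called genes of each other list and 1 in the opposite direction are named by rule. Nothing in the labels says whether equal replicate numbers pair the arrays, and the main fit left them unpaired. Alternatives were the authors' values, an offset of 50, other detection filters, another probe rule, a replicate block, a gland covariate and leaving out each array.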

Additional observations from a re-analysis of the deposited data

Results flagged for a closer look

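A pair of genes had probes outside the tests that were detected on some knockout arrays and on 0 of 3 wild-type arrays. A Lig1 probe (ILMN_1213101) was detected on 2 knockout arrays, where its highest log2 level was 6.41, against at most 5.64 in wild type. Of the Tyms probes, ILMN_2441895 reached 5.78 and ILMN_2441899 reached 5.86, each detected on 1 knockout array, against at most 5.32 and 5.15 in wild type. In the non-normalized table the signals of these probes were lower in the knockout, at 132, 147 and 116 against 186, 153 and 168 for the Lig1 probe, 129.8, 105.2 and 114.1 against 160.3, 155.1 and 160.1 for ILMN_2441895, and 116, 121 and 135 against 165, 141 and 150.5 for ILMN_2441899. All 3 are close to background, and the median signal of the arrays was also lower in the knockout. The tested probes of both genes fell or were not called.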

How the results depend on the processing

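The 24 replication genes that fell numbered 7 with the gland covariate, where 1 rose (Gins3, log2 change 1.00, adjusted p = 0.038) and the median change was -0.54. With that covariate the calls numbered 2583 probes in all, 0 origin recognition, 3 helicase loading, 0 helicase activation, 1 polymerase and primase, 0 single-strand binding, 1 nucleotide supply and 0 maturation genes, 5 of the other replication genes, 3 regulators, 0 other nucleotide enzymes and 4 mitosis genes. The covariate differs between the groups, so it removes part of the genotype difference by construction. Without a filter on dim probes 1 polymerase and 1 maturation gene fell. With any tested probe counted, 1 gene rose (Ung, 0.92). Prim2 read 0.44 with the covariate, and Gins3 ranged from -0.18 (without wild-type replicate 2) to 0.40 with 1 array left out. With the replicate block 2 helicase activation genes were called lower. The block changed 3 calls among the 36 genes (Orc5 lost, Cdc45 and Pold1 gained). Deviations of arrays with the same number correlated at 0.489, 0.318 and -0.308, and 3 of 6 arrays correlated best with their own number.

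With 1 array left out, the calls ranged from 1805 to 6298 probes and from 7 to 29 replication genes that fell, with 0 that rose. They ranged from 0 to 2 origin recognition, 3 to 8 helicase loading, 0 to 2 helicase activation, 1 to 4 polymerase, 2 to 4 clamp, 0 to 3 single-strand binding, 1 to 4 nucleotide supply and 0 to 2 maturation genes. The other replication genes ranged from 6 to 15, regulators from 5 to 15, other nucleotide enzymes from 0 to 10 and mitosis genes from 4 to 15. The median change ranged from -1.47 to -0.97. The authors' values kept 23 of the 24 calls, an offset of 50 all 24, no filter 22 and the stricter filter all 23 still tested. A chip block was not run, as the files name no chip.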
